A study of Homo sapiens with 4 samples.

Results

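The genes described here are 10 aldehyde dehydrogenases, ALDH1A1, ALDH1A3, ALDH1L1, ALDH2, ALDH3A1, ALDH3A2, ALDH3B1, ALDH7A1, ALDH9A1 and ALDH18A1. They were chosen by symbol, and all 10 were found among the 50868 genes of the count files. The cells were A549 cells, an established line of human lung adenocarcinoma. Messenger RNA was sequenced from 2 libraries of control cells, which carried the empty vector as the study names them (A549-EV), and 2 libraries of cells made to express additional USP12 (A549-USP12), a ubiquitin-specific protease that removes ubiquitin from other proteins. The study placed tagged human USP12 in lentiviral vectors, and whether the sequenced cells were a clone or a mixed population is not given in the sources used here. The labels give no age of the cultures and no treatment beyond the vector, and do not say whether the replicates were separate cultures, so the p-values measure the spread between these libraries, which may be technical. The comparison asked which transcripts differed when USP12 was overexpressed.

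Aldehyde dehydrogenases oxidise aldehydes to carboxylic acids with NAD+ or NADP+ as the cofactor, and so remove reactive aldehydes made by lipid peroxidation, alcohol metabolism and amino acid breakdown. Members of the ALDH1A branch also make retinoic acid from retinal, and this acid switches genes on through nuclear receptors. A549 cells are known for high ALDH1A1 and ALDH3A1, and ALDH activity is widely used to mark subsets of lung cancer cells. The family includes outliers as well: ALDH1L1 works on a folate, and ALDH18A1 reduces glutamate on the path to proline.

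The promoters of ALDH1A1 and ALDH1A3 are printed here because the 2 enzymes carry out the same reaction, yet their transcripts had very different levels and behaved differently between the control libraries. Each sequence gives the 250 bases before the transcription start in the RefSeq table (build GRCh38.p14), written 5′ to 3′ on the strand of the gene, and capitals mark the letters of a CCAAT box or a GC box. The ALDH1A1 bases lie at chr9:72953054-72953303 on the minus strand and the ALDH1A3 bases at chr15:100879581-100879830 on the plus strand.
ALDH1A1: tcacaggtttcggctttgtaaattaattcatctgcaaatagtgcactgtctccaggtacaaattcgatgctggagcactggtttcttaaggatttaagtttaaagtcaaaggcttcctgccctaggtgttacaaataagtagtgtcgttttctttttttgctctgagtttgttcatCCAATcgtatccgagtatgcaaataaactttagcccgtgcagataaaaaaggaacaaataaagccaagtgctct
ALDH1A3: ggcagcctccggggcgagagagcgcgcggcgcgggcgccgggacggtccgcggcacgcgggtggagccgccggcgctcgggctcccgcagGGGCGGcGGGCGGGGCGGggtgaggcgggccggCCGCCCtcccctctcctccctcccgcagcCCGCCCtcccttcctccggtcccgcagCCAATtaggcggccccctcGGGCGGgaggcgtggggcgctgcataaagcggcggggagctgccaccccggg
The ALDH1A1 stretch held 38.4% G and C, and the ALDH1A3 stretch 82.4%. Over the whole window of the table, which adds 50 bases after the start, ALDH1A1 was at the 11.8th percentile of G and C content and ALDH1A3 at the 98.6th percentile among 35114 windows, whose median was 58.7%. Both had 1 CCAAT box, starting 74 bases before the start site in ALDH1A1 and 71 bases before it in ALDH1A3. ALDH1A3 also had 6 GC boxes (GGGCGG on either strand), of which those on the plus strand 153 and 148 bases before the start share a base, and ALDH1A1 had none.

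The table held 8 of the 10 genes in 11 windows, and ALDH2 and ALDH3A1 were not matched. Searched on both strands, CCAAT was found in 4 of the 11 windows (ALDH1A1, ALDH1A3, ALDH3A2 and ALDH7A1), against 34.6% of all windows. GGGCGG was found in 6 of 11, against 45% of all windows. TATAAA was found in 1 of 11, a window of ALDH1L1, against 11.5%. The core of the antioxidant response element, TGACNNNGC, was found in 0 of 11 windows, against 13.3% of all windows, and the NF-κB consensus in 0 of 11, against 5.91%. These counts describe letters in short windows.

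The libraries held between 14280081 and 16305356 counts. A level of 3 counts was taken as the floor, which corresponds to between 0.166 and 0.227 CPM (counts per 1000000 of the TMM-scaled library size) and covers counting error only. Where values of a group are given in pairs, replicate 1 comes first. USP12 had 15.2 and 34.4 CPM in controls and 1745 and 2235 CPM with USP12, as the labels require. Its log2 fold change was 6.32 (standard error 0.57), with an adjusted p of 0.0975 by the quasi-likelihood test of edgeR. The control libraries differed from each other more than the USP12 libraries did. Over the 15222 genes tested, the log2 ratio of the controls had an SD of 1.32, and that of the USP12 pair an SD of 0.62. Control replicate 1 stood apart from the other 3, and its column heading carries another date-like prefix. As that prefix covers 1 library, it cannot be told apart from that culture. The 6 epithelial markers were present in every library, and their summed CPM was 12896 and 7474 in controls and 7316 and 6794 with USP12. The 5 markers of alveolar type II cells, the lung cell to which A549 is usually compared, summed to 2.35 and 5.82 CPM in controls and to 0.58 and 0.35 CPM with USP12. LAMP3 gave most of it, at 1.97 and 5.60 CPM in controls and 0.43 and 0.28 CPM with USP12. SFTPB was listed at 0 in every library. The 5 leukocyte markers summed to 32.9 and 6.26 CPM in controls and to 13.5 and 12.3 CPM with USP12, with CD14 giving most of it and CD3E at 0. The 3 endothelial markers summed to 15.4 and 8.59 CPM in controls and to 0.43 and 1.32 CPM with USP12. The groups did not overlap for the endothelial, the epithelial and the alveolar type II sums, all lower with USP12. Among all single genes tested, 17% had that pattern. Of the 6 epithelial markers, KRT7 and CDH1 had overlapping groups, and the others were lower in both USP12 libraries than in either control. The 5 fibroblast markers summed to 16.1 and 2.72 CPM in controls and to 20.01 and 15.9 CPM with USP12, and the erythroid markers were at 0. The part of these levels in the results was not tested.

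Of the retinal-oxidising enzymes, ALDH1A1 was abundant and ALDH1A3 scarce. ALDH1A1 (ENSG00000165092, GENCODE 44 span chr9:72900671-73080442, minus strand), the main cytosolic retinal dehydrogenase, had 3031 and 4285 CPM in controls and 4083 and 3862 CPM with USP12. Both USP12 libraries lay between the control libraries. The log2 fold change of USP12 over control was 0.12 (standard error 0.30, 95% interval -0.61 to 0.85, adjusted p = 0.976). The interval reached less than 1 log2 unit in either direction. In bulk RNA, fewer cells with a transcript and less of it per cell cannot be told apart.

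ALDH1A3 (ENSG00000184254, chr15:100877714-100916626, plus strand), which also oxidises retinal and is linked to stem-like tumour cells, was far lower and much more uneven. It had 720 and 191 counts in controls and 139 and 155 counts with USP12, or 54.5, 10.6, 10.01 and 10.7 CPM. Control replicate 1 alone was high, and the other 3 libraries were nearly equal, with USP12 replicate 2 above control replicate 2. The log2 fold change was -1.65 (standard error 0.78, 95% interval -3.55 to 0.26, adjusted p = 0.752), the largest in size among the 9 genes tested. Without control replicate 1 it was -0.03, and without control replicate 2 it was -2.36 with an adjusted p of 0.00256. The antisense gene ALDH1A3-AS1 overlaps it on the opposite strand and had 65 and 36 counts in controls and 159 and 164 counts with USP12. Whether counting used strand is not stated, so reads of the 2 genes cannot be told apart.

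**Figure D1:**
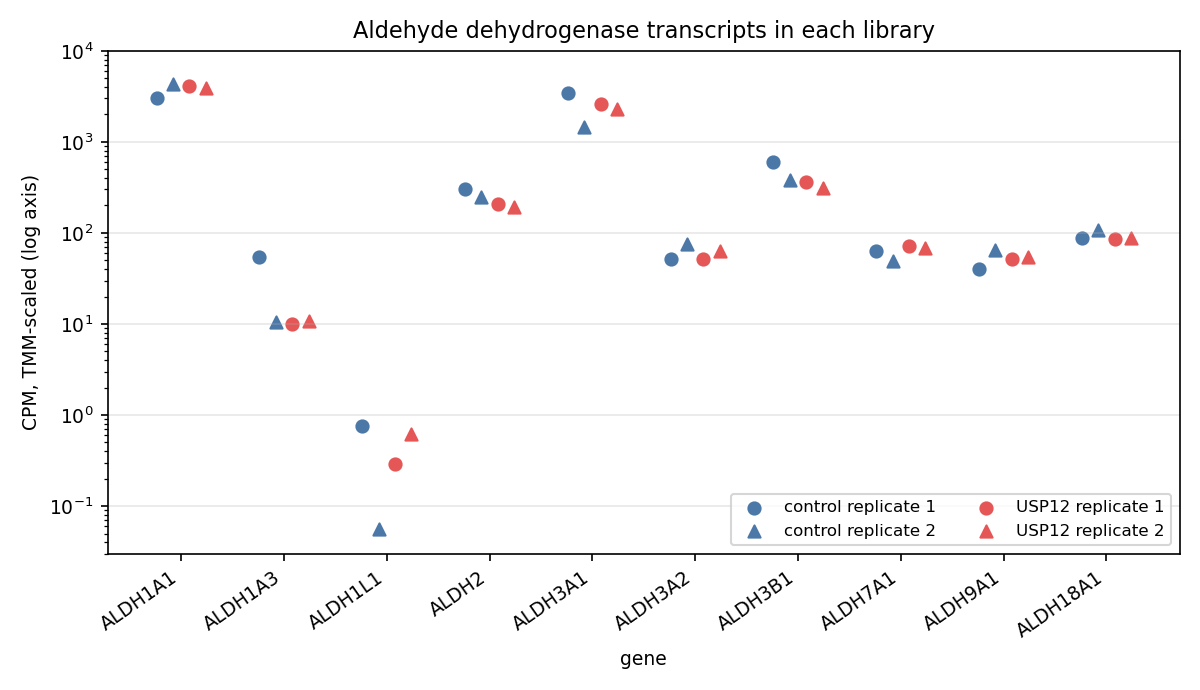
CPM of each of the 10 aldehyde dehydrogenase genes in the 4 libraries, on a log axis, with control libraries in blue, USP12 libraries in red, circles for replicate 1 and triangles for replicate 2. ALDH1A1 and ALDH3A1 sit above 1000 CPM in every library, and the ALDH1A3 point of control replicate 1, at 54.5 CPM, is apart from the 3 others near 10 CPM.

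The ALDH3 enzymes act on longer and aromatic aldehydes. ALDH3A1 (ENSG00000108602, chr17:19737984-19748943, minus strand), which oxidises aromatic and medium-chain aldehydes and is abundant in the cornea, had 3438 and 1462 CPM in controls and 2615 and 2274 CPM with USP12. As for ALDH1A1, the USP12 libraries lay inside the range of the control libraries, but here control replicate 1 was the highest library rather than the lowest. The fold change was 0.998 (log2 fold change -0.0030, standard error 0.45, 95% interval -1.09 to 1.08). Without control replicate 1 the log2 fold change was 0.74 (adjusted p = 0.0601), and without control replicate 2 it was -0.46. The direction for ALDH3A1 thus turned on which control library was used.

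ALDH3A2 (ENSG00000072210, chr17:19648136-19685760, plus strand), the fatty aldehyde dehydrogenase of the endoplasmic reticulum, had 51.6 and 75.5 CPM in controls and 51.9 and 63.2 CPM with USP12. Its groups overlapped, and the log2 fold change was -0.14 (standard error 0.39, 95% interval -1.10 to 0.82). ALDH3B1 (ENSG00000006534, chr11:68008578-68029282, plus strand), a membrane-bound enzyme for aldehydes from lipid peroxidation, had 607 and 378 CPM in controls and 361 and 309 CPM with USP12. The USP12 values were below both control values, though USP12 replicate 1 was close to control replicate 2. The log2 fold change of ALDH3B1 was -0.56 (standard error 0.37, 95% interval -1.47 to 0.35, adjusted p = 0.872). It was -0.17 without control replicate 1 and -0.83, with an adjusted p of 0.0242, without control replicate 2.

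ALDH2 (ENSG00000111275, chr12:111766887-111817532, plus strand), the mitochondrial enzyme that clears acetaldehyde made from ethanol, had 307 and 248 CPM in controls and 208 and 191 CPM with USP12. The groups did not overlap, and the difference between them was larger than the difference within either. ALDH2 was the only 1 of the 9 genes tested for which that was so. The log2 fold change was -0.48 (standard error 0.34, 95% interval -1.29 to 0.34, adjusted p = 0.887). It was negative in each of the 10 alternatives run, from -0.59 without control replicate 2 to -0.31 without control replicate 1. These alternatives refit the same libraries and are no separate evidence, and ALDH1A3 also kept its sign in all 10. A same-strand gene without a symbol (ENSG00000257767) overlaps ALDH2, with between 36 and 69 counts per library.

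The enzymes of amino acid and carnitine metabolism were at moderate levels. ALDH7A1 (ENSG00000164904, chr5:126531200-126595362, minus strand), which oxidises the semialdehyde formed in lysine breakdown, had 63.8 and 49.0 CPM in controls and 71.8 and 67.4 CPM with USP12. It was the only 1 of the 9 genes tested with both USP12 libraries above both control libraries. For ALDH7A1 the log2 fold change was 0.30 (standard error 0.37, 95% interval -0.59 to 1.20, adjusted p = 0.945). It was positive in each of the 10 alternatives, which refit the same libraries. A pseudogene, ALDH7A1P1, had between 47 and 73 counts per library, and how fragments common to both were assigned was not tested. ALDH9A1 (ENSG00000143149, chr1:165662216-165698562, minus strand), an enzyme of carnitine synthesis, had 40.3 and 65.5 CPM in controls and 51.3 and 53.7 CPM with USP12. The groups overlapped, and the log2 fold change of ALDH9A1 was -0.011 (standard error 0.41, 95% interval -1.01 to 0.99). ALDH18A1 (ENSG00000059573, chr10:95605941-95656711, minus strand), which makes pyrroline-carboxylate on the way to proline, had 87.9 and 107.5 CPM in controls and 86.5 and 87.1 CPM with USP12. The groups did not overlap, but control replicate 1 was less than 1 CPM above USP12 replicate 2. The log2 fold change of ALDH18A1 was -0.17 (standard error 0.35, 95% interval -1.02 to 0.68).

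ALDH1L1 (ENSG00000144908, chr3:126103562-126197994, minus strand), the cytosolic dehydrogenase of formyl-tetrahydrofolate, was almost silent. It had 10 counts in control replicate 1, 1 count in control replicate 2, 4 counts in USP12 replicate 1 and 9 counts in USP12 replicate 2, and was removed by the filter for low counts. The USP12 libraries held 13 counts against 11 in the control libraries, a ratio of 1.304 after scaling, with an exact 95% interval of 0.539 to 3.22 for counting error only. A difference in ALDH1L1 was not detectable at this depth.

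With edgeR's quasi-likelihood test and Benjamini-Hochberg adjustment over all genes, 0 of the 9 genes tested had an adjusted p under 0.05, against 0% of the 15222 genes in either direction. At an unadjusted p under 0.05 the count was also 0 of 9, against 7.59% of all genes. DESeq2's Wald test and edgeR's exact test likewise called 0 members after adjustment, where DESeq2 called 1.79% of all genes lower and 0.874% higher and the exact test 1.72% and 1.1%. Among the members the lowest unadjusted p was that of ALDH1A3, at 0.0172 by DESeq2's Wald test and 0.0473 by the exact test. The share of all genes with an unadjusted p under 0.05 is not given here for these tests. By the criterion of the study for a differentially expressed gene, applied here as an unadjusted p of 0.05 or less with a log2 fold change of at least 1 in size, 0 members were lower, against 4.41% of all genes, and 0 were higher, against 2.92%. Without the filter on low counts, 0 members were called, against 1.46% of all genes lower and 0.673% higher, and with the replicate number as a block 0 members, against 1.65% and 1.01%. Leaving out control replicate 2 gave 2 members lower (ALDH1A3 and ALDH3B1), against 16.3% of all genes lower and 15.9% higher. Leaving out control replicate 1 gave 0 members, against 5.74% and 4.73%. Leaving out either USP12 library also gave 0, against 0.174% lower in each case and 0.0744% and 0.0993% higher. The adjusted p of the members ranged from 0.752 to 1.000. The USP12 values were both below the control values for 3 of 9 members (ALDH2, ALDH3B1 and ALDH18A1), where 17% of all genes had that pattern, and above them for 1 of 9 (ALDH7A1), against 19.5%. An exact two-sided permutation test of 2 libraries against 2 cannot give a p below 0.333.

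The point estimate was below 0 for 7 of the 9 members and above 0 for 2, with a median log2 fold change of -0.14, against a median of -0.06 over all genes. The point estimates were mostly small: the median absolute log2 fold change was 0.17, against 0.42 over all genes. These medians were not matched for level, and the genes tested include some with few counts. Larger differences stay possible, as the narrowest 95% interval was -0.61 to 0.85, for ALDH1A1, and the widest -3.55 to 0.26, for ALDH1A3. Of the 3 largest differences, that of ALDH1A3 rested on control replicate 1, and those of ALDH3B1 and ALDH2 became -0.17 and -0.31 without it.

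**Figure D2:**
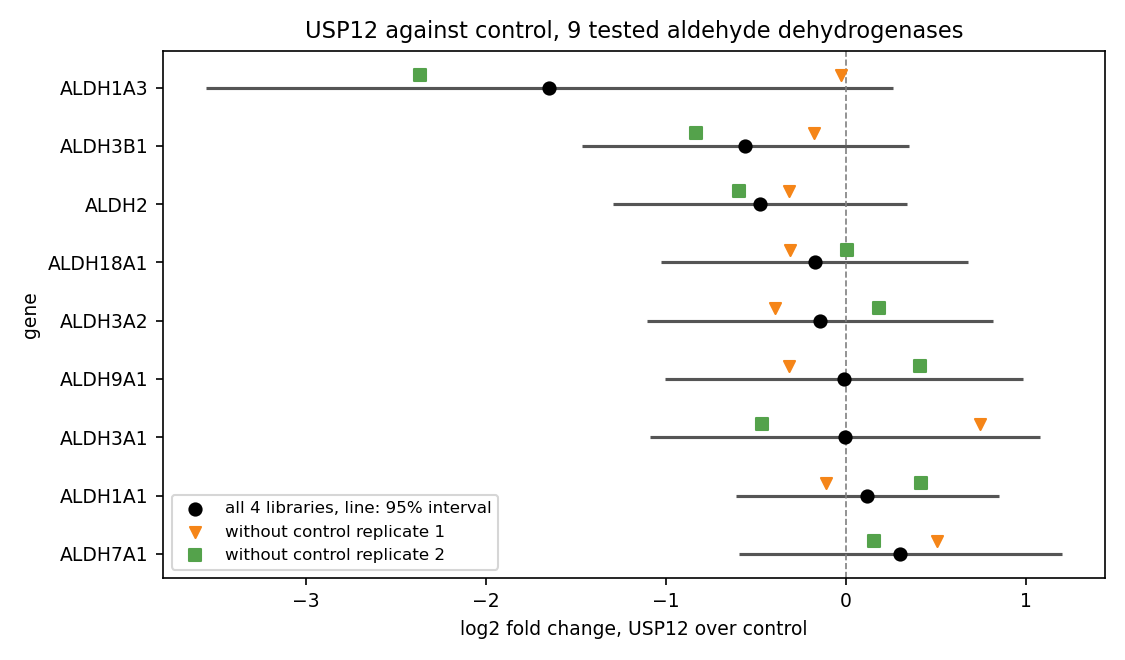
Log2 fold change of USP12 over control for the 9 members tested, with lines for the 95% interval of edgeR's quasi-likelihood fit, triangles for the fit without control replicate 1 and squares for the fit without control replicate 2. Every interval of the full fit crosses 0, and the marks of ALDH1A3 lie at -0.03 and -2.36.

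The larger differences in these genes were between the control libraries. The control libraries differed by more than the USP12 libraries for 9 of 9 members, which was also so for 81% of all genes. For 8 of 9 members the control difference exceeded the fold change between groups, against 71.3% of all genes. The exception was ALDH2, with a log2 difference of 0.30 between the controls and -0.48 between the groups. The median absolute log2 difference between the control libraries was 0.55 over the members and 0.88 over all genes. For the USP12 pair it was 0.10 over the members and 0.24 over all genes. These medians, too, were not matched for level. ALDH1A3 (2.35), ALDH3A1 (1.23), ALDH3B1 (0.68), ALDH7A1 (0.38) and ALDH2 (0.30) were higher in control replicate 1 on the log2 scale, with the difference from control replicate 2 in brackets. ALDH9A1 (-0.70), ALDH3A2 (-0.55), ALDH1A1 (-0.50) and ALDH18A1 (-0.29) were lower there. The 2 control libraries therefore differed in both directions within the family. The widest gap of the 9 members between the USP12 libraries was 0.28, for ALDH3A2.

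**Figure D3:**
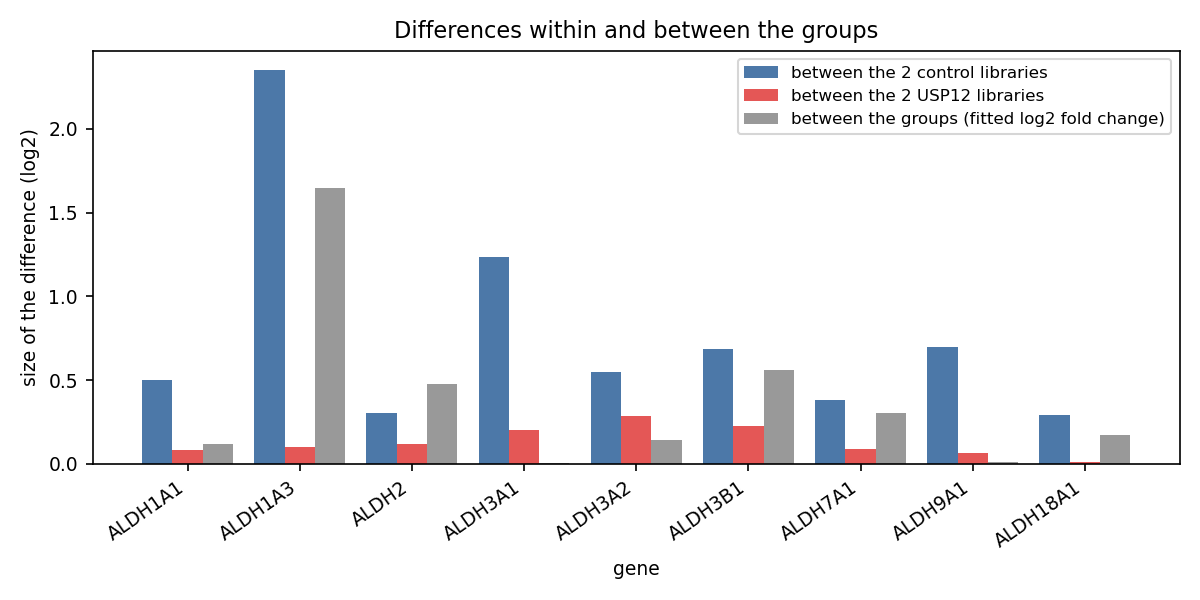
For each of the 9 members tested, the absolute log2 difference between the control libraries, between the USP12 libraries and between the groups (log2 CPM and fitted log2 fold change). The control bar exceeds the group value for 8 members, with ALDH2 as the exception, and the tallest USP12 bar is that of ALDH3A2, at 0.28.

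On a scale per length, as CPM per kilobase of merged exons in GENCODE 44, the members spanned more than 4 orders of magnitude. ALDH1A1 led with a mean of 1288 CPM per kb in controls (1067 and 1509) and 1399 with USP12 (1438 and 1360). ALDH3A1 was next, with 632 (887 and 377) in controls and 630 (674 and 586) with USP12. The 2 ranges did not overlap in either group. Among 15094 genes with a length, ALDH1A1 ranked between 22 and 45, and ALDH3A1 between 48 and 68, in the 4 libraries. ALDH3B1 followed at 74.4 CPM per kb in the control and 50.5 in the USP12 libraries, ahead of ALDH2 at 28.5 and 20.5, ALDH18A1 at 26.0 and 23.1, and ALDH9A1 at 17.6 and 17.5. The control order of ALDH2 and ALDH18A1 was within the spread of the libraries, and with USP12 the order was the opposite, with ranges that did not overlap. This change of order depended on the length used. With the longest annotated transcript, ALDH18A1 was above ALDH2 in both groups, at 29.15 against 29.03 in controls and 25.9 against 20.9 with USP12.

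The lower end of the order held ALDH1A3, ALDH3A2 and ALDH7A1. ALDH1A3 had 6.10 CPM per kb in controls (10.2 and 1.98) and 1.94 with USP12. ALDH3A2 had 4.15 and 3.75 and ALDH7A1 had 3.15 and 3.88 in the same order of groups. In the control libraries the ranges of ALDH1A3 and ALDH3A2, and of ALDH3A2 and ALDH7A1, overlapped. In the USP12 libraries only those of ALDH7A1 and ALDH3A2 did. ALDH1L1 was last, with 0.030 and 0.033. The merged exons of ALDH7A1 (17914 bases over 37 annotated transcripts) and ALDH3A2 (15331 bases over 42) are long, and with the longest annotated transcript as the length their control levels became 11.8 and 12.5, above the 9.38 of ALDH1A3. With that length, 5 of the 10 genes kept their place in the control order.

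**Figure D4:**
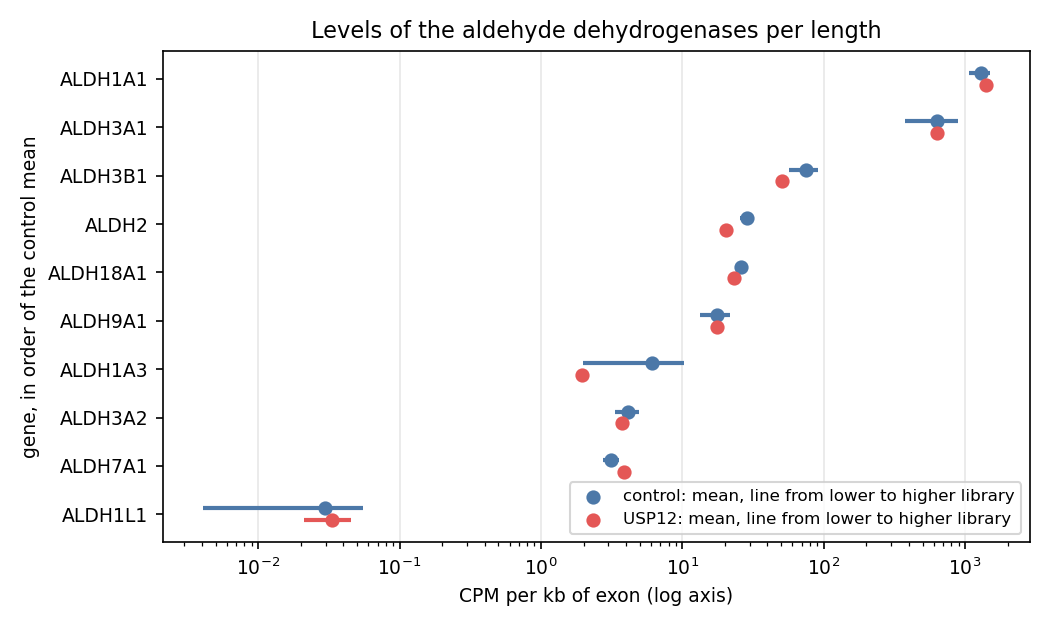
Level of the 10 members per length, as CPM per kilobase of merged exons on a log axis, with a point for the mean of each group (blue for control, red for USP12) and a line from its lower to its higher library. ALDH1A1, at 1288 and 1399, and ALDH3A1, at 632 and 630, stand far to the right of the others, and ALDH1L1, at 0.030 and 0.033, far to the left.

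The share of the raw counts taken by the whole family lay in a narrow range. The 19 aldehyde dehydrogenase genes together took 0.724% (Wilson 95% interval 0.720 to 0.729) and 0.757% (0.752 to 0.761) of the counts in controls, and 0.740% (0.735 to 0.744) and 0.718% (0.713 to 0.722) in the USP12 libraries. The groups overlapped, and the 10 members made up between 97.5% and 98.1% of these counts. After TMM scaling the family had 7847 and 6837 CPM in controls and 7684 and 7098 CPM with USP12. Control replicate 2 was thus the highest library by raw share and the lowest by scaled level. Within the members, ALDH1A1 and ALDH3A1 together held between 84.2% and 88.9% of the counts. Their proportions differed most between the controls: ALDH1A1 held 39.5% of the member counts in control replicate 1 and 64.1% in control replicate 2, against 54.2% and 55.8% in the USP12 libraries. ALDH3A1 held 44.8% and 21.9% in controls, and 34.7% and 32.9% with USP12. Per kilobase, ALDH1A1 was 1.20 and 4.003 times ALDH3A1 in the control libraries and 2.13 and 2.32 times in the USP12 libraries. The sum of the 2 genes was narrower in range, at 6469 and 5747 CPM in controls and 6698 and 6136 CPM with USP12.

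Genes with the most similar pattern over the 4 libraries were sought for ALDH1A3 and ALDH3A1, whose log2 CPM spread most. The measure was the Euclidean distance between centred log2 CPM values, and with 4 libraries many genes come close by it. For ALDH1A3 the nearest were CS, the citrate synthase gene, at 0.051, and BAIAP3 at 0.16, with 755 genes within a distance of 1. CS had 364 and 71.8 CPM in controls and 64.9 and 70.9 CPM with USP12, so that it too was high in control replicate 1 alone. For ALDH3A1 the nearest were FKBP4, encoding a co-chaperone of HSP90, at 0.0095, ATP6V0E2 at 0.047 and TUBG1, encoding gamma-tubulin, at 0.056, with 5406 genes within a distance of 1.

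Of the 9 other aldehyde dehydrogenase genes, 6 passed the filter on low counts and 0 had an adjusted or an unadjusted p under 0.05 by edgeR's quasi-likelihood test. DESeq2 and the exact test also gave 0 adjusted calls. ALDH1B1, a mitochondrial relative of ALDH2, had 46.5 and 35.9 CPM in controls and 55.1 and 56.0 CPM with USP12 (log2 fold change 0.43, standard error 0.38, adjusted p = 0.924). ALDH16A1 had 36.5 and 22.1 CPM in controls against 20.2 and 15.9 CPM (log2 fold change -0.69, standard error 0.47, adjusted p = 0.874). Those were the 2 genes of the 6 whose groups did not overlap, where 36.5% of all genes had groups apart in either direction.

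The remaining 4 had overlapping groups, and their log2 fold changes are in brackets. ALDH4A1, of proline breakdown, had 35.6 and 11.3 CPM in the control and 21.7 and 24.03 CPM with USP12 (log2 fold change -0.03). ALDH5A1, of GABA breakdown, had 15.0 and 25.2 against 25.1 and 30.1 CPM (0.46). ALDH6A1, of valine breakdown, had 16.1 and 26.4 against 19.1 and 21.1 CPM (-0.08). ALDH1L2, the mitochondrial relative of ALDH1L1, had 15.6 and 34.3 against 3.31 and 32.1 CPM (-0.50). ALDH1A2, the third retinal dehydrogenase, had 0 and 2 counts in controls and 12 and 0 counts with USP12, and was not tested. ALDH3B2 and ALDH8A1 had at most 2 counts in any library.

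The retinoic acid pathway was described next, since ALDH1A1 and ALDH1A3 supply its ligand. Of 28 genes for retinal supply, binding proteins, receptors and breakdown, 20 were tested, with 11 point estimates below 0 and 9 above, and a median log2 fold change of -0.19. None of the 20 had an adjusted p under 0.05, the lowest being 0.279, and 3 had an unadjusted p under 0.05, a share to be read against 7.59% of all genes. RDH10, which makes retinal from retinol upstream of the ALDH1A enzymes, had 115 and 264 CPM in controls and 68.8 and 75.7 CPM with USP12 (log2 fold change -1.39, standard error 0.48, adjusted p = 0.527 by edgeR). CYP26B1, which breaks retinoic acid down, had 53.0 and 21.1 CPM in controls and 10.3 and 6.58 CPM with USP12 (log2 fold change -2.13, standard error 0.61, adjusted p = 0.394 by edgeR). RARB, a retinoic acid receptor, had 2.27 and 2.94 CPM in controls and 12.6 and 13.6 CPM with USP12. The log2 fold change of RARB was 2.33 (standard error 0.51, 95% interval 1.09 to 3.56, adjusted p = 0.279 by edgeR).

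For RARB, the adjusted p was 0.0126 with edgeR's exact test and 0.0164 with DESeq2. For CYP26B1, it was 0.0191 with DESeq2 and 0.0597 with the exact test. For RDH10, it was 0.171 with DESeq2 and 0.212 with the exact test. With the replicate number as a block in edgeR's quasi-likelihood test, it was 0.0430 for RARB, 0.0539 for CYP26B1 and 0.250 for RDH10. Without control replicate 1, the log2 fold change was -1.87 for RDH10 and -1.32 for CYP26B1. Without control replicate 2, it was -0.65 for RDH10 and -2.62 for CYP26B1. The groups did not overlap for 2 of the 20 genes that were lower (CYP26B1 and RDH10), against 17% of all genes, and for 5 that were higher, RARB among them, against 19.5%. The 3 named genes act at different points of the pathway, in supply, removal and reception of the ligand. The cause of their differences was not tested.

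**Figure D5:**
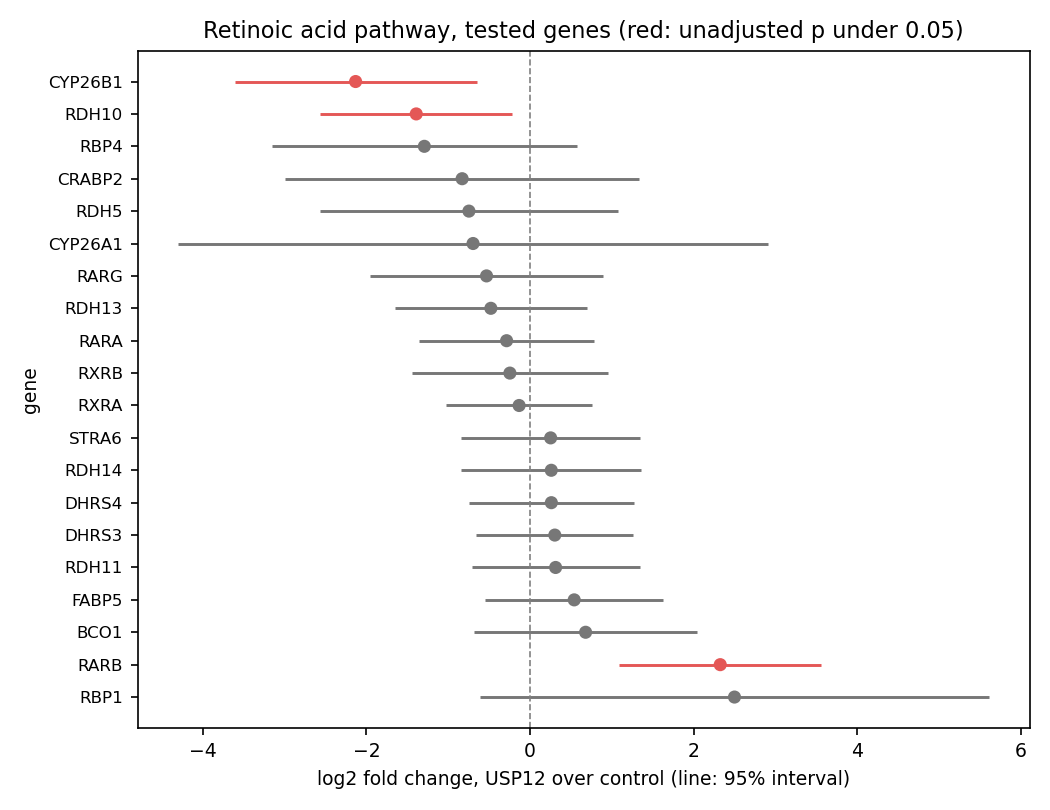
Log2 fold change of USP12 over control for the 20 tested genes of the retinoic acid pathway, with lines for the 95% interval and red for an unadjusted p under 0.05. The 3 red genes are CYP26B1 at -2.13, RDH10 at -1.39 and RARB at 2.33, and the lines of the other genes cross 0.

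The alcohol dehydrogenases and aldo-keto reductases handle the same aldehydes by reduction or by making them from alcohols. Of 22 such genes, 16 were tested, with 8 point estimates on each side of 0, a median log2 fold change of -0.01, and 0 genes at an unadjusted p under 0.05. Adjusted calls numbered 0 with edgeR's quasi-likelihood test, its exact test and DESeq2. The groups did not overlap for 3 genes that were lower, where 17% of all genes had that pattern, and for 4 that were higher, against 19.5%.

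The folate and proline enzymes surround ALDH1L1 and ALDH18A1. Of 24 genes, 22 were tested, with 8 point estimates below 0, 14 above and a median log2 fold change of 0.12. Again 0 genes had an adjusted p under 0.05, and 2 had an unadjusted p under 0.05, against 7.59% of all genes. DESeq2 called 0 of these genes and the exact test called 1 higher, AMT, where it called 1.1% of all genes higher. AMT passed the filter on low counts only through the USP12 libraries, and was not tested when at least 10 counts were required in every library. This gene, the aminomethyltransferase of glycine cleavage, had 0 and 1 counts in controls and 22 counts in each USP12 library, with an adjusted p of 0.298 by edgeR. The ratio of its summed counts after scaling was 48.6, with an exact 95% counting interval of 8.27 to 1961. TYMS, the thymidylate synthase gene, had 46.2 and 60.0 CPM in controls and 94.7 and 112 CPM with USP12 (log2 fold change 0.96, standard error 0.37, adjusted p = 0.605 by edgeR).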

How the data were processed

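Messenger RNA of 4 A549 libraries, 2 control and 2 USP12, was compared. The authors deposited raw counts of uniquely mapped fragments per gene, made by trimming adaptors and removing ribosomal RNA reads with Seqtk, mapping to GRCh38 with HISAT2 2.0.4 and counting with StringTie 1.3.0 (versions from the submitters' processing notes). The library kit was stranded, but which annotation was used, and whether counting used strand, is not given in the sources used here. Rows naming no gene were not found.

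From the counts, fold changes were obtained with edgeR 4.0.16 under R 4.3.3 (filterByExpr, then TMM, then the two-sided quasi-likelihood test, Benjamini-Hochberg adjustment over 15222 genes). Approximate standard errors were derived by dividing each log2 fold change by the root of its F statistic. Log2 CPM used a prior count of 2. Positions and lengths came from GENCODE 44 and promoters from RefSeq (GRCh38.p14). Intervals of counts cover counting error only. The fit was tested on simulated data.

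The members, the 4 gene lists and the markers were chosen with earlier results of these data known. Named genes were all members, USP12, every other aldehyde dehydrogenase tested, for the lists up to 3 genes each with an unadjusted p under 0.05 and groups that do not overlap, and the 3 genes nearest in pattern to the 2 members of widest range. Some items that these rules select are not reported here. Alternatives were DESeq2 size factors, no filter, at least 10 counts in every library, the DESeq2 1.42.0 Wald test, edgeR's exact test, the replicate number as a block, leaving out each library, and for levels the longest transcript.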

Additional observations from a re-analysis of the deposited data

How the results depend on the processing

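The count of members with an adjusted p under 0.05 was 0 in every alternative except without control replicate 2, which gave 2 lower (ALDH1A3 and ALDH3B1) in a fit that called 32.2% of all genes, so leaving out a library gave between 0 and 2 lower and 0 higher. Over all tested genes, against 0 lower and 0 higher, the counts were 361 and 167 with no filter, 273 and 133 with DESeq2's Wald test, 262 and 167 with the exact test, 251 and 153 with the replicate block, and between 28 and 2612 and between 12 and 2550 with a library left out. By the criterion of the study, against 671 and 445, they were 1173 and 688 with no filter and between 300 and 2134 and between 159 and 2495 with a library left out, and no filter, DESeq2, the exact test and leaving out control replicate 2 each gave 1 member lower, ALDH1A3. Left-out libraries gave between 0 and 1 calls in each direction for the other aldehyde dehydrogenases, 0 to 9 lower and 0 to 3 higher for the retinoic acid pathway, 0 to 2 lower and 0 to 1 higher for the alcohol dehydrogenases and aldo-keto reductases, and 0 to 3 lower and 0 to 6 higher for the folate and proline enzymes. The retinoic acid pathway had 2 lower and 1 higher with no filter, 1 and 1 with DESeq2, and 1 higher (RARB) with the exact test and with the block. The folate and proline list had 1 higher (AMT, which needs its USP12 counts to pass a filter) with no filter, the exact test and the block. USP12 passed the threshold with no filter (6.33), DESeq2 (6.31), the exact test (6.32), the block (6.43) and each library left out (5.85 to 7.06).

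Signs turned for ALDH3A1 with no filter (0.021) and the block (0.12) and for ALDH9A1 with no filter (0.0022) and the block (0.030). With a library left out, the ranges crossed 0 for ALDH1A1 (-0.11 to 0.42), ALDH3A1 (-0.46 to 0.74), ALDH3A2 (-0.39 to 0.19), ALDH9A1 (-0.32 to 0.41) and ALDH18A1 (-0.31 to 0.0093), and the cause was not tested. Replicates only share a number (correlation of deviations 0.152), and with the block 0 members were called. Its prior degrees of freedom were infinite. Where a group has 1 library, the lone library is assumed to vary like the other group. With the longest transcript as length, 5 members kept their control place.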

Other observations

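The gene in this paragraph was singled out after its values were seen. ALDH1L2, the mitochondrial enzyme that oxidises formyl-tetrahydrofolate, differed between the USP12 libraries more than between the groups, at 3.31 CPM in replicate 1 and 32.1 CPM in replicate 2, a log2 difference of 3.22. Only 41 of the 15222 genes tested (0.269%) differed at least as much between these libraries, whose median absolute log2 difference was 0.24. In the control libraries replicate 2 was also above replicate 1, at 34.3 CPM against 15.6 CPM. In all, 242 genes (1.59%) were higher in replicate 2 by at least 1 log2 unit in both groups, and 193 were higher in replicate 1. The cause was not tested.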
